A study of Homo sapiens with 24 samples.

Results

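The 37 genes described here encode the Sm and LSm proteins, the proteins particular to the U1, U2, U5, U4/U6.U5, U7 and U11/U12 small nuclear ribonucleoproteins (snRNPs), and 5 proteins that carry small nuclear RNAs (snRNAs) between nucleus and cytoplasm or gather them in Cajal bodies. They were taken by name from the 60366 entries of the count table. The naming rule uses no measured value, but the set was chosen with earlier results of these data known. All 37 passed the filter on low counts in each cell line. The counts come from stranded poly(A) libraries of 3 established human pancreatic adenocarcinoma cell lines, BXPC3, MIAPACA2 and PSN1, in which MTAP is deleted according to the labels and whose genotype label reads WT. AM-9747 is a PRMT5 inhibitor that acts together with methylthioadenosine, the metabolite that MTAP clears. The groups were BXPC3 with AM-9747 at 100 nM, MIAPACA2 with AM-9747 at 150 nM, PSN1 with AM-9747 at 100 nM, and each line with DMSO vehicle, all taken at day 6, with 4 libraries in each of the 6 groups. MIAPACA2 alone had the higher dose, so for it the effects of dose and of line cannot be told apart. Whether the replicates came from separate cultures is not in the labels, and p-values measure the spread between these libraries only, which may be technical, and in bulk RNA fewer cells of a kind and less RNA per cell cannot be told apart.

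Sm proteins form a ring of 7 subunits around the U1, U2, U4, U5, U11 and U12 snRNAs, and the related LSm proteins form rings on U6 snRNA, on U7 snRNA and on the tails of mRNAs that are to be decapped. PRMT5, with its partner WDR77, dimethylates arginines that stand before glycines in the tails of SmB, SmD1 and SmD3, in LSm4 and in the Cajal body protein coilin. The SMN complex then loads the Sm proteins onto snRNA in the cytoplasm, after the cap-binding complex and PHAX have brought the snRNA out of the nucleus, and snurportin returns the particle. Because some of these proteins are substrates of the drug's target, the comparison here asks whether the mRNAs of the set changed.

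The coding sequences show where the substrates carry their arginine and glycine codons. Counted over the coding sequences of GENCODE 29 (GRCh38), LSM14A held 17 Arg-Gly codon pairs, SNRPD1 and LSM11 held 10 each, SNRPB, SNRNP70, LSM4 and COIL 8 each, and SNRPN, SNRPD3 and LSM14B 7 each, while 9 of the 37 genes held 0. Per 100 codons SNRPD1 had the most at 8.4, followed by LSM4 at 5.76 and SNRPD3 at 5.56. The 5 stretches below are those of the PRMT5 substrates SNRPD1, SNRPD3, LSM4 and COIL and of LSM11, a gene that rose in PSN1. Capitals mark Arg-Gly codon pairs, and a stretch runs on while neighbouring pairs are no more than 5 codons apart.
SNRPD1 codons 98 to 115: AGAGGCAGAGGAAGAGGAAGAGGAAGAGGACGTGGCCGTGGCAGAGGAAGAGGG
SNRPD3 codons 110 to 119: AGAGGAAGAGGACGTGGAatgggaCGTGGA
LSM4 codons 102 to 118: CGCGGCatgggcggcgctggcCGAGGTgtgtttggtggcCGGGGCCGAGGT
LSM11 codons 68 to 79: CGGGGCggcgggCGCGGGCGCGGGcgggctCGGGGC
COIL codons 410 to 420: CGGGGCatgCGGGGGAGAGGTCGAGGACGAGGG
The SNRPD1 stretch is Arg-Gly codons without a break, with 9 pairs in 54 bases. The LSM4, LSM11 and SNRPD3 stretches hold 4 pairs each and have other codons between them.

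Promoter windows in the RefSeq tables (GRCh38.p14, 250 bases before to 50 after a transcript start) covered 31 of the 37 genes in 42 windows. An ETS-type motif, CCGGAAG read on both strands, was in 15 of the 42 windows (35.7%), against 10.3% of 35097 windows of the same length. The genes with such a window were SNRPB, SNRPD2, SNRPE, SNRPG, SNRPC, SNRPA1, SNRPB2, SNRNP27, SNRNP200, LSM5, LSM8 and PHAX. The other motifs searched on both strands were CCAAT (38.1% of the 42 windows and 34.6% of all), the GC box GGGCGG (54.8% and 44.9%), the NRF1 motif (2.38% and 1.24%), the E-box CACGTG (2.38% and 7.25%) and the YY1-type AAGATGGCG (4.76% and 1.75%). The window of SNRPB2, the gene of the set that rose in BXPC3 with the largest change, is shown because it holds 2 ETS-type matches, in capitals (chr20:16729776-16730075, GRCh38.p14, plus strand).
SNRPB2 promoter: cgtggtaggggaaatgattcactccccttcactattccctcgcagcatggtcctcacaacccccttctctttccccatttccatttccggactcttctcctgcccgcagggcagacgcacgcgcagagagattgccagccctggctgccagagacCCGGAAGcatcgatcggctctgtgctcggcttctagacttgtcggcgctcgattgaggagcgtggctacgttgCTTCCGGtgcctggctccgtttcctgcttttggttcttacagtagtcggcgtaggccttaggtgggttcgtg
The window of PHAX also held 2 ETS-type matches, and that of SNRPC held 2 that overlap each other on opposite strands. Neither gene passed in a line. The windows of NCBP2, LSM10, LSM3, LSM4 and LSM11, which rose in a line, held no ETS-type match. Windows of the same gene can overlap and share a match, as for SNRPG. A match describes these letters and does not show that a factor binds there.

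Library totals ran from 22412691 to 45561185 counts. Levels are CPM, counts scaled to library size with TMM factors, and levels of different genes are compared per kilobase of exon (RPKM). Exon length covers all annotated exons of a gene, not an expressed transcript, so ranks between genes depend on the annotation. Fold changes are AM-9747 over vehicle on the log2 scale with their SE, and p-values come from the quasi-likelihood test of edgeR, adjusted by Benjamini-Hochberg over all genes tested, with 0.05 as the threshold. In BXPC3 all 6 epithelial markers checked (KRT8, KRT18, KRT19, KRT7, EPCAM, CDH1) were present, with sums of 5236 to 7669 CPM with AM-9747 and 7306 to 12720 CPM with vehicle. In MIAPACA2 KRT7, EPCAM and CDH1 averaged under 1 CPM in both groups, and in PSN1 CDH1 averaged 1.60 and 0.625 CPM, so these lines lack some of the defining markers. Of 8 markers of other cell types, PTPRC averaged under 1 CPM in every group and GCG was at 0, while the collagen COL1A2 stood at 1180 ± 294 CPM with AM-9747 and 2205 ± 512 with vehicle in MIAPACA2 (SD, n = 4 each). The sums of these 8 markers were 35.7 to 52.8 CPM with AM-9747 and 30.7 to 43.2 CPM with vehicle in BXPC3, 968 to 1624 and 1681 to 2842 CPM in MIAPACA2, and 46.0 to 69.0 and 139 to 153 CPM in PSN1. Some markers changed with AM-9747. In PSN1 the trypsinogen gene PRSS1 fell to 1.43 ± 0.734 CPM with AM-9747, against 93.1 ± 11.5 CPM with vehicle (-6.01 ± 0.47, adjusted p 2.61e-04), while COL1A1 stood at 30.8 ± 8.96 and 14.8 ± 6.72 CPM (1.06 ± 0.37, 0.0897). In MIAPACA2 COL1A2 fell (-0.90 ± 0.21, 0.0162) and EPCAM rose, at 0.804 ± 0.425 CPM with AM-9747 and 0.0431 ± 0.0534 CPM with vehicle (4.19 ± 1.01, 0.0210). In BXPC3 KRT19 fell (-0.80 ± 0.26, 0.0415), COL1A1 rose (0.48 ± 0.15, 0.0392) and PECAM1 fell to 2.29 ± 0.563 CPM with AM-9747, against 4.58 ± 0.559 CPM with vehicle (0.00699). Their part in the results was not tested.

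Some libraries stood apart in ways that bear on these genes. In BXPC3 the 37 genes summed to 2770 to 3670 CPM with AM-9747. Vehicle replicates 1 to 3 summed to 2295 to 2370 CPM and vehicle replicate 4 to 3209 CPM, and replicate 4 was the highest of its group for 28 of the 37 genes. In the same library short transcripts stood higher against long ones, with a difference of 0.69 in median log2 level, against -0.28 to -0.15 in vehicle replicates 1 to 3 and -0.40 to 0.32 with AM-9747. Replicate 4 of BXPC3 with AM-9747 had the highest sum (3670 CPM) and length difference (0.32) of its group. It was the highest of that group for 24 of the 37 genes. MIAPACA2 AM-9747 replicate 4 was highest of its group for 25 genes, and PSN1 vehicle replicate 1 for 28. In MIAPACA2 the sums were 2314 to 2651 CPM with AM-9747 and 2615 to 2653 CPM with vehicle. In PSN1 they were 3166 to 3717 CPM with AM-9747, 3193 CPM in vehicle replicate 1 and 2390 to 2561 CPM in vehicle replicates 2 to 4. The mitochondrial share of PSN1 counts was 20 ± 10.8% with AM-9747 and 33.1 ± 11.3% with vehicle. In vehicle replicates 1, 2, 3 and 4 it was 17.4, 43.8, 37.6 and 33.5%. Genes detected in these libraries numbered 24738, 19398, 16646 and 21467, against 22386 to 27120 with AM-9747 in PSN1. Vehicle replicate 3 had the fewest genes detected and the fewest counts of all 24 libraries. The part of the mitochondrial share, of genes detected and of transcript length in the results was not tested beyond the values given below.

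**Figure D1:**
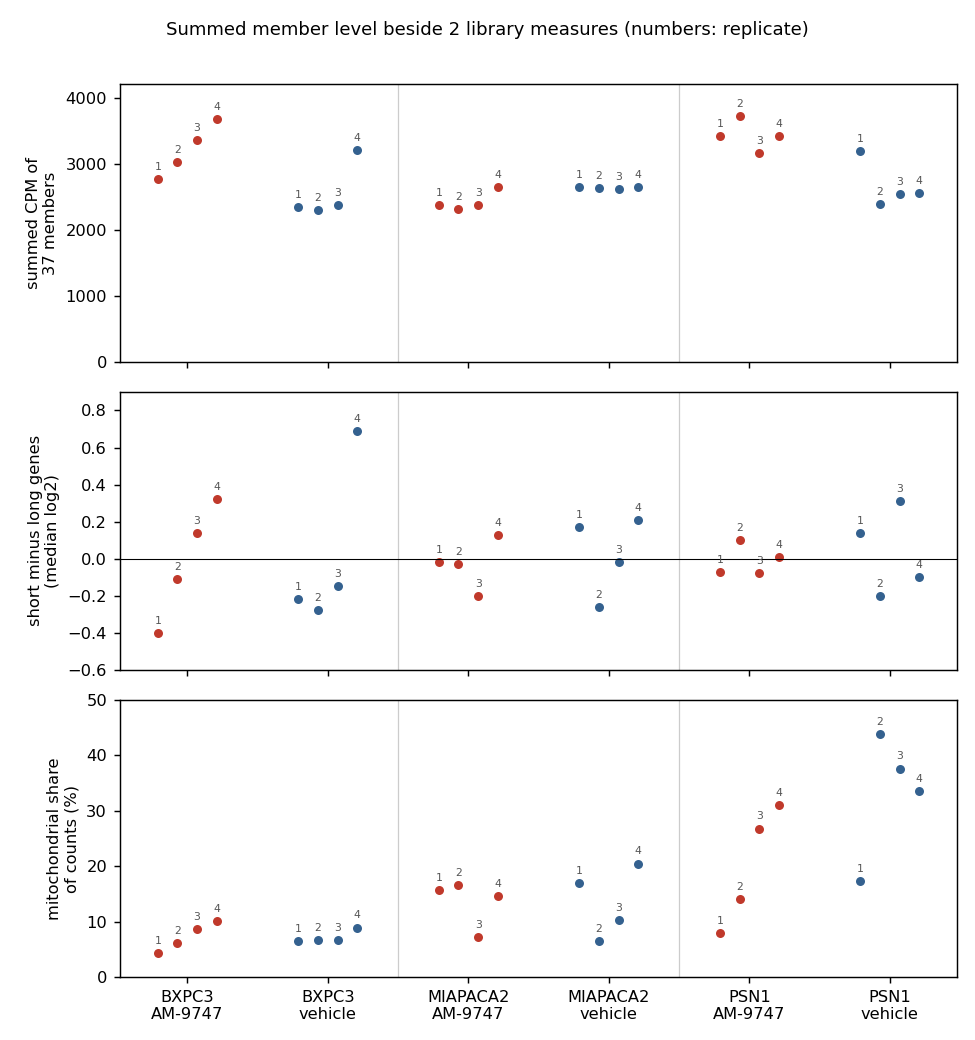
Summed level of the 37 genes (CPM), difference in median log2 level between short and long transcripts, and mitochondrial share of counts (%) in each of the 24 libraries, with AM-9747 left of vehicle in each line. Each point is a library, and BXPC3 vehicle replicate 4 (3209 CPM) and PSN1 vehicle replicate 1 (3193 CPM) lie within the range of the AM-9747 libraries of their lines.

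The values of the set lay mostly above 0 in BXPC3 and PSN1 and close to 0 in MIAPACA2, with SNRPN below 0 throughout. SNRPN was the only one of the 37 below 0 in all 3 lines, while 19.2% of the 14476 genes tested in all lines were. This sign pattern was therefore common among all genes and rare in the set. Above 0 in all 3 were 12 of the 37 (32.4%, against 19.2% of the 14476 genes). Another 12 were above 0 in BXPC3 and PSN1 and below 0 in MIAPACA2 (32.4%, against 12.2% of the 14476 genes). The median log2 fold change of the 37 was 0.31 in BXPC3 (30 above 0), -0.11 in MIAPACA2 (14 above 0) and 0.66 in PSN1 (30 above 0), beside 0.00, -0.03 and 0.08 for all genes tested. In MIAPACA2 the sign of this median rests on the scaling: without it the 37 had a median of 0.06 with 27 above 0, as the median of all genes moved to 0.15 (in PSN1 it moved to 0.37, and that of the 37 to 0.94). The median SE of a gene stood at 0.19 for BXPC3, at 0.16 for MIAPACA2 and at 0.28 for PSN1.

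**Figure D2:**
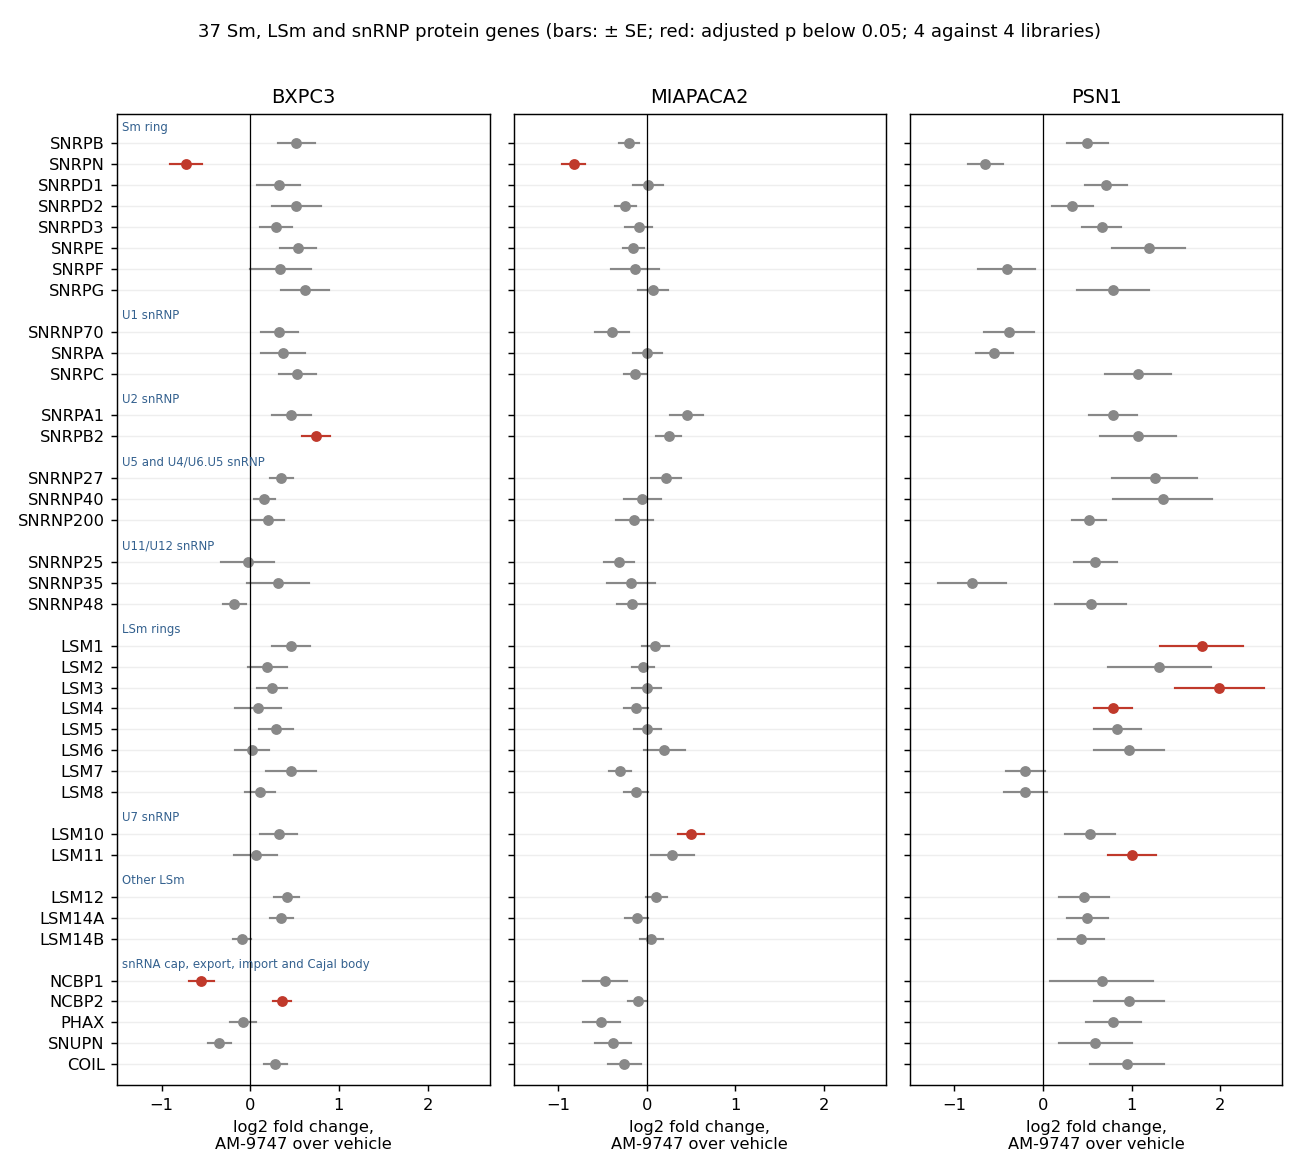
Log2 fold change (AM-9747 over vehicle) of each of the 37 genes in BXPC3, MIAPACA2 and PSN1, ordered by role, with bars of 1 SE and red points where adjusted p is below 0.05. SNRPN lies at -0.72, -0.82 and -0.65, and the widest bars belong to PSN1.

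Counted by the test, 4 of the 37 genes changed in BXPC3 (SNRPB2 and NCBP2 higher, SNRPN and NCBP1 lower), where 29.2% of all genes changed (13.1% higher, 16.0% lower). In MIAPACA2 2 changed (LSM10 higher, SNRPN lower), beside 13.8% of all genes (6.33% higher, 7.47% lower). In PSN1 4 changed, all higher (LSM1, LSM3, LSM4 and LSM11), beside 10.0% of all genes (4.49% higher, 5.53% lower). The shares of the 37 were 10.8%, 5.41% and 10.8%, below the background in BXPC3 and MIAPACA2 and near it in PSN1. That reading depends on the fit. With the mitochondrial share as a covariate 20 of the 37 were called in BXPC3 (17 higher, beside 45.4% of all genes) and 10 in MIAPACA2 (3 higher, beside 35.9%). With length tilt as a covariate 28 were called in BXPC3 (25 higher, beside 53.7%) and 7 in MIAPACA2 (3 higher, beside 30.7%). Without adjustment, p was below 0.05 for 21 genes higher and 2 lower in PSN1, where 14% and 13.6% of all genes were, for 10 higher and 3 lower in BXPC3 (19.2% and 21.6%), and for 2 higher and 3 lower in MIAPACA2 (13.7% and 15.7%).

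The counts by adjusted p moved with single libraries. Without BXPC3 vehicle replicate 4 the BXPC3 count was 19 (17 higher, 2 lower, beside 37.1% of all genes), and it was 2 without vehicle replicate 1 or AM-9747 replicate 3. Without PSN1 vehicle replicate 1 the PSN1 count was 22 (21 higher, 1 lower, beside 23.9% of all genes). It was 0 without PSN1 vehicle replicate 2 or 4 or AM-9747 replicate 1, 2 or 4, and 1 without vehicle replicate 3 or AM-9747 replicate 3. The MIAPACA2 count was 1 without vehicle replicate 1, 2 or 3 or AM-9747 replicate 1, 2 or 4. The calls among all genes moved as well over the single libraries left out. They numbered 487 to 4529 in PSN1 (1834 with all libraries) and 3698 to 6729 in BXPC3 (5143 with all). In MIAPACA2 they numbered 1173 to 3226 (2498 with all).

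SNRPN encodes SmN, a close relative of SmB that is expressed from the paternal chromosome and is best known from brain (ENSG00000128739, chr15:24823637-24978723, GRCh38, plus strand). In BXPC3 its level was 15.0, 20.3, 18.4 and 24.9 CPM with AM-9747 and 31.3, 27.3, 30.4 and 40.3 CPM with vehicle. In MIAPACA2 it was 40.7, 36.3, 33.9 and 44.9 CPM with AM-9747 and 75.3, 63.6, 70.4 and 66.3 CPM with vehicle. In PSN1 it was 60.5, 55.7, 65.9 and 73.4 CPM with AM-9747 and 118, 89.5, 101 and 91.2 CPM with vehicle. In each line every AM-9747 library was below every vehicle library, a pattern that 2.01% of all genes showed. SNRPN fell to 0.607 of vehicle in BXPC3 (log2 -0.72 ± 0.18, adjusted p 0.0142) and to 0.565 in MIAPACA2 (-0.82 ± 0.13, adjusted p 0.00267). In PSN1 the ratio was 0.639 (-0.65 ± 0.20) and the adjusted p was 0.0623, which the threshold excludes. Over the mean of the lines it fell by 0.73 ± 0.10 (adjusted p 4.75e-06), and the test of a difference between lines gave an adjusted p of 0.863. The BXPC3 and MIAPACA2 calls held without any single library.

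Other transcripts share the SNRPN locus. SNRPN overlaps 141 exon bases of the long noncoding RNA SNHG14 on the same strand, and SNHG14 was at -0.13 ± 0.17 in BXPC3 (adjusted p 0.590). SNHG14 fell in MIAPACA2 (-0.55 ± 0.16, adjusted p 0.0384) and in PSN1 (-0.97 ± 0.23, adjusted p 0.0285). The MIAPACA2 call of SNHG14 was lost without vehicle replicate 1, 3 or 4 or AM-9747 replicate 1, 3 or 4 (-0.58 to -0.45, up to 0.109), and the PSN1 call without vehicle replicate 2 or 4 or any 1 of AM-9747 replicates 1 to 4 (-1.02 to -0.89, up to 0.0923). The SNURF entry, which shares 814 exon bases with SNRPN on the same strand, had 1.85% as many counts as SNRPN. AC124312.1 shares 541 exon bases with SNRPN on the same strand and had 0.0914% as many counts. The counts of SNRPN may therefore depend on how overlapping reads were assigned. SNRPN and SNRPB are 81.5% identical over the 696 coding bases aligned and share no run longer than 32 bases in their transcripts.

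SNRPB, which encodes SmB and SmB′, is the ring subunit that SmN can replace. It stood at 395, 453, 563 and 585 CPM with AM-9747 and 296, 288, 308 and 502 CPM with vehicle in BXPC3. In MIAPACA2 it stood at 164, 171, 194 and 186 CPM with AM-9747 and 225, 189, 201 and 206 CPM with vehicle. In PSN1 it stood at 505, 524, 479 and 461 CPM with AM-9747 and 490.1, 317, 266 and 317 CPM with vehicle. The groups overlap in each line, through vehicle replicate 4 in BXPC3 and vehicle replicate 1 in PSN1, and SNRPB did not pass in any line (0.52 ± 0.21, adjusted p 0.0882 in BXPC3, -0.20 ± 0.11, 0.272 in MIAPACA2 and 0.50 ± 0.23, 0.187 in PSN1). Without BXPC3 vehicle replicate 4 SNRPB was at 0.75 in BXPC3 (adjusted p 0.00442), and without PSN1 vehicle replicate 1 at 0.71 in PSN1 (0.0214).

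The level of SNRPN per exon base, as a share of that of SNRPB in the same library, does not depend on the scaling. It was 1.42, 1.67, 1.22 and 1.59% with AM-9747 and 3.96, 3.55, 3.68 and 3.01% with vehicle in BXPC3. In MIAPACA2 it was 9.28, 7.92, 6.55 and 9% with AM-9747 and 12.5, 12.6, 13.1 and 12% with vehicle. In PSN1 it was 4.48, 3.98, 5.15 and 5.96% with AM-9747 and 9.01, 10.6, 14.2 and 10.8% with vehicle. The share was lower in every AM-9747 library than in any vehicle library of its line. Its size depends on the annotated exon lengths, 3416 bases for SNRPN and 1278 for SNRPB.

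**Figure D3:**
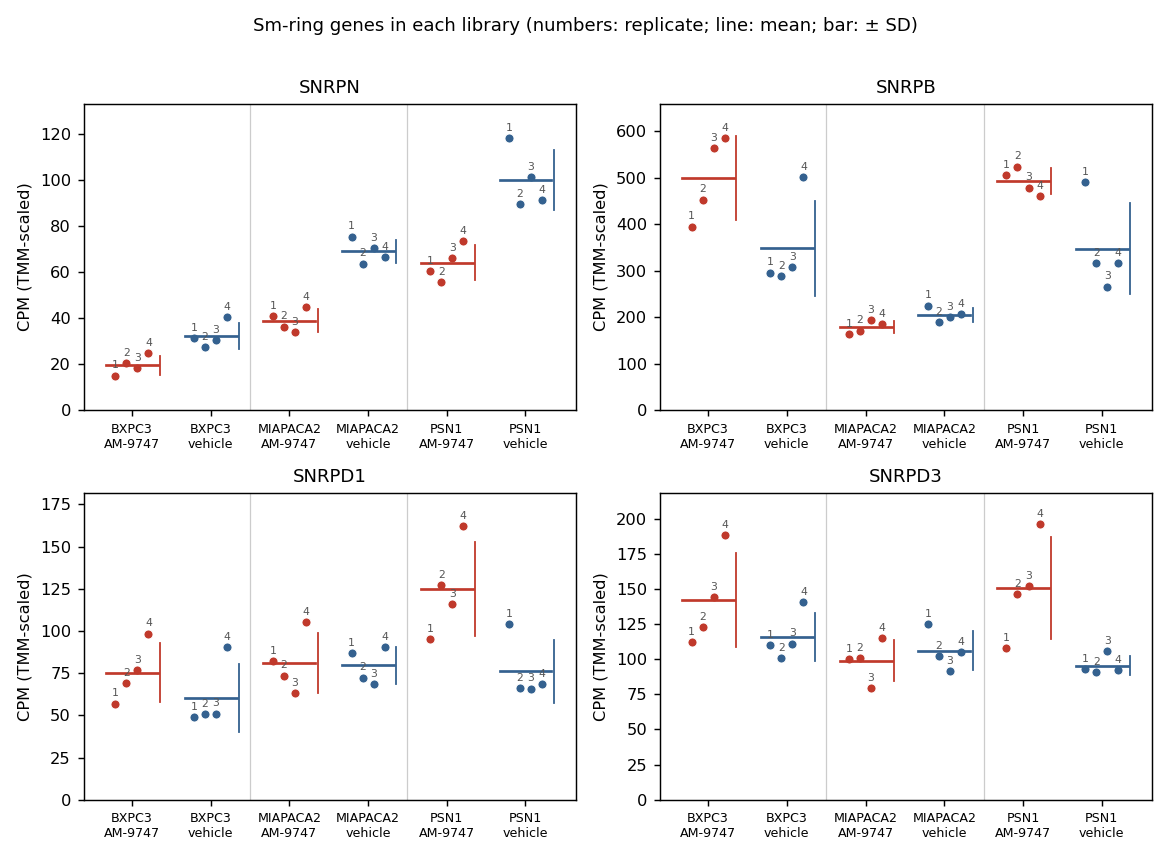
Levels (CPM) of SNRPN, SNRPB, SNRPD1 and SNRPD3 in each library, AM-9747 left of vehicle in each line, with the group mean and SD. For SNRPN the 4 AM-9747 libraries lie below the 4 vehicle libraries in every line, and for SNRPB and SNRPD1 the highest vehicle library of BXPC3 and of PSN1 reaches the AM-9747 range.

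SNRPD1 and SNRPD3, the ring subunits with the densest Arg-Gly stretches above, were not called in any line. SNRPD1 was at 57.0, 68.9, 76.6 and 98.4 CPM with AM-9747 and 49.0, 50.8, 51.0 and 90.6 CPM with vehicle in BXPC3, at 82.1, 73.5, 63.0 and 105 CPM and 86.9, 72.3, 68.6 and 90.6 CPM in MIAPACA2, and at 95.3, 127, 116 and 162 CPM and 104, 66.1, 65.8 and 68.7 CPM in PSN1. The groups overlap in all lines, in PSN1 because vehicle replicate 1 lay above AM-9747 replicate 1, and the log2 fold changes were 0.32 ± 0.24 (adjusted p 0.344), 0.02 ± 0.17 (0.949) and 0.71 ± 0.24 (0.0858). SNRPD3 was at 112, 123, 144 and 188 CPM with AM-9747 and 110.1, 101, 111 and 140.3 CPM with vehicle in BXPC3, at 100.3, 101, 79.4 and 115 CPM and 125, 102, 91.5 and 105 CPM in MIAPACA2, and at 108, 146, 152 and 196 CPM and 92.8, 90.6, 106 and 92.2 CPM in PSN1. In PSN1 the 4 AM-9747 libraries were above the 4 vehicle libraries, as for 11.7% of all genes there, and the groups overlap in the other lines. Its log2 fold changes were 0.29 ± 0.18 (adjusted p 0.244), -0.09 ± 0.15 (0.710) and 0.66 ± 0.22 (0.0816). SNRPD1 was at 0.58 in BXPC3 without vehicle replicate 4 (adjusted p 0.0252) and at 0.90 in PSN1 without vehicle replicate 1 (0.0166), and SNRPD3 was at 0.40 (0.0933) and 0.65 (0.0653) without the same libraries. SNRPD3 shares 321 exon bases with GUCD1 on the opposite strand and 306 with GGT1 on the same strand, so its counts may depend on how overlapping reads were assigned. GUCD1 was at 0.23 ± 0.10 in BXPC3 (adjusted p 0.116), -0.15 ± 0.11 in MIAPACA2 (0.398) and 0.25 ± 0.20 in PSN1 (0.435).

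The remaining ring genes SNRPD2, SNRPE, SNRPF and SNRPG had log2 fold changes of 0.34 to 0.62 in BXPC3, -0.24 to 0.07 in MIAPACA2 and -0.41 to 1.19 in PSN1, and none passed in a line. SNRPE had the largest of these, 1.19 ± 0.41 in PSN1 (adjusted p 0.0878), with a mean of 61.1 ± 19.7 CPM with AM-9747 and 26.7 ± 17.5 CPM with vehicle. SNRPD2 shares 54 exon bases with QPCTL on the opposite strand, and QPCTL was at -0.79 ± 0.16, -0.55 ± 0.12 and -1.67 ± 0.27 in BXPC3, MIAPACA2 and PSN1. SNRPF was the ring gene furthest below 0 in PSN1 after SNRPN (-0.41 ± 0.32, adjusted p 0.437).

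The U1-specific proteins, encoded by SNRNP70, SNRPA and SNRPC, recognise the 5′ splice site together with U1 snRNA, and none of them passed in a line. In PSN1 SNRPA was at 88.4, 132, 131 and 127 CPM with AM-9747 and 151, 163, 211 and 173 CPM with vehicle, so the groups did not overlap (AM-9747 lower, as for 9.71% of all genes in PSN1), at -0.55 ± 0.21 (adjusted p 0.128). SNRPC was above 0 in PSN1, at 1.07 ± 0.37 (adjusted p 0.0920). In BXPC3 the 3 genes were at 0.33 to 0.53 and in MIAPACA2 at -0.39 to 0.01.

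SNRPB2 encodes U2B″, which with the product of SNRPA1 binds a stem-loop of U2 snRNA (SNRPB2 is ENSG00000125870, chr20:16729961-16742563, GRCh38, plus strand, the gene whose promoter is printed above). In BXPC3 it stood at 103, 98.6, 118 and 142 CPM with AM-9747 and 62.4, 62.7, 64.2 and 86.9 CPM with vehicle. In MIAPACA2 it stood at 71.7, 78.8, 61.1 and 85.9 CPM with AM-9747 and 69.0, 54.2, 62.6 and 64.4 CPM with vehicle, and in PSN1 at 215, 239, 137 and 167 CPM with AM-9747 and 184, 52.2, 41.1 and 84.1 CPM with vehicle. The groups are apart in BXPC3, even with vehicle replicate 4 (AM-9747 higher, as for 15.0% of all genes there), and overlap in MIAPACA2 and PSN1. SNRPB2 rose in BXPC3 (0.74 ± 0.16, adjusted p 0.00733), a call that held without any single library and was lost in the joint fit of all lines (adjusted p 0.132). It was at 0.25 ± 0.14 in MIAPACA2 (adjusted p 0.253) and 1.07 ± 0.43 in PSN1 (0.134). SNRPA1 was at 0.46 ± 0.22, 0.45 ± 0.19 and 0.79 ± 0.27 in the 3 lines, without passing in one (adjusted p 0.140, 0.143 and 0.0884).

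Among the U5 and tri-snRNP genes, SNRNP200 (the helicase Brr2 that unwinds U4 from U6), SNRNP40 and SNRNP27, none passed in a line. Their log2 fold changes were 0.16 to 0.35 in BXPC3, -0.14 to 0.22 in MIAPACA2 and 0.52 to 1.35 in PSN1. In PSN1 SNRNP200 was at 312, 277, 324 and 298 CPM with AM-9747 and 207, 235, 177 and 226 CPM with vehicle, without overlap (AM-9747 higher, as for 11.7% of all genes in PSN1), and its adjusted p was 0.107. The U11/U12 genes SNRNP25, SNRNP35 and SNRNP48 of the minor spliceosome spanned -0.80 to 0.59 over the lines, and none passed. In PSN1 SNRNP25 was at 15.9, 16.1, 16.6 and 20.3 CPM with AM-9747 and 9.77, 13.1, 10.2 and 12.8 CPM with vehicle, without overlap (0.59 ± 0.24, adjusted p 0.148). SNRNP35 shares 2063 exon bases with RILPL1 on the opposite strand and SNRNP25 shares 153 with POLR3K, so their counts depend on how strand was used in counting, which is not given in the sources used here. SNRNP27 shares 237 exon bases with MXD1 on the same strand, and the MXD1 entry had 127% as many counts as SNRNP27. The counts of SNRNP27 may therefore depend on how overlapping reads were assigned.

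LSM1 takes the place of LSM8 in the cytoplasmic LSm ring that promotes decapping (ENSG00000175324). In PSN1 it stood at 30.5, 38.6, 22.3 and 34.1 CPM with AM-9747 and 18.5, 6.07, 3.18 and 8.35 CPM with vehicle. In BXPC3 it stood at 24.9, 23.7, 31.5 and 38.3 CPM with AM-9747 and 18.8, 20.9, 17.2 and 28.9 CPM with vehicle, and in MIAPACA2 at 26.6, 26.5, 19.4 and 28.6 CPM with AM-9747 and 26.3, 22.0, 22.4 and 23.8 CPM with vehicle. The groups are apart only in PSN1 (AM-9747 higher, as for 11.7% of all genes there), where the vehicle values spread widest. LSM1 rose in PSN1 (1.79 ± 0.47, adjusted p 0.0357), and its values were 0.46 ± 0.21 in BXPC3 (0.119) and 0.10 ± 0.15 in MIAPACA2 (0.701). Between the lines its response differed (adjusted p 0.0355, beside 12.1% of all genes), with a difference of -1.69 ± 0.46 for MIAPACA2 minus PSN1 (adjusted p 0.0224, beside 10.4% of all genes). The PSN1 call was lost without vehicle replicate 2 (log2 1.64, adjusted p 0.103) or 4 (1.75, 0.103) or AM-9747 replicate 1 (1.80, 0.0735), 2 (1.68, 0.112), 3 (1.92, 0.0560) or 4 (1.75, 0.0895). Without vehicle replicates 2 and 3 together LSM1 was at 1.22 (adjusted p 0.113), and with the mitochondrial share as a covariate at 1.42 (0.0568).

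LSM3 sits in both the nuclear and the cytoplasmic LSm ring (ENSG00000170860, chr3:14178358-14201119, GRCh38, plus strand). In PSN1 it stood at 62.8, 49.4, 22.7 and 29.4 CPM with AM-9747 and 19.4, 3.20, 9.76 and 9.05 CPM with vehicle. In BXPC3 it stood at 22.1, 20.8, 24.8 and 25.3 CPM with AM-9747 and 18.6, 14.3, 19.5 and 25.6 CPM with vehicle. In MIAPACA2 it stood at 29.6, 20.5, 32.1 and 32.9 CPM with AM-9747 and 29.7, 31.2, 29.2 and 24.9 CPM with vehicle. Only the PSN1 groups are apart, and there LSM3 rose by the largest log2 fold change of the 37 genes (1.99 ± 0.50, adjusted p 0.0332), beside 0.25 ± 0.17 in BXPC3 (0.309) and 0.00 ± 0.16 in MIAPACA2 (0.994). The difference between the lines passed (adjusted p 0.0160), with -1.73 ± 0.49 for BXPC3 minus PSN1 (adjusted p 0.0321, beside 8.33% of all genes) and -1.98 ± 0.49 for MIAPACA2 minus PSN1 (0.0129). The PSN1 call was lost without vehicle replicate 2 (1.69, adjusted p 0.0626), 3 (1.96, 0.0586) or 4 (1.93, 0.0983) or AM-9747 replicate 1 (1.70, 0.0879), 2 (1.89, 0.0988) or 4 (2.12, 0.0641), and the difference between lines without PSN1 AM-9747 replicate 1 (0.0512).

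LSM4, an LSm ring subunit and PRMT5 substrate, stood in PSN1 at 111, 145, 102 and 116 CPM with AM-9747 and 84.1, 57.5, 61.8 and 69.6 CPM with vehicle. In BXPC3 it stood at 61.7, 75.9, 94.2 and 98.8 CPM with AM-9747 and 67.6, 53.5, 64.6 and 126 CPM with vehicle, and in MIAPACA2 at 78.0, 74.7, 59.0 and 79.4 CPM with AM-9747 and 82.6, 68.6, 75.5 and 90.5 CPM with vehicle. The groups are apart in PSN1 and overlap in the other lines, in BXPC3 with vehicle replicate 4 as the highest library. LSM4 rose in PSN1 (0.79 ± 0.21, adjusted p 0.0392) and was at 0.09 ± 0.26 in BXPC3 (0.837) and -0.12 ± 0.14 in MIAPACA2 (0.590), without a difference between lines that passed (0.0926). Of the calls with 1 PSN1 library left out, the one without vehicle replicate 1 held (0.91, adjusted p 0.0118). The call was lost without vehicle replicate 2 (0.72, adjusted p 0.115), 3 (0.75, 0.0648) or 4 (0.80, 0.104) or AM-9747 replicate 1 (0.82, 0.0715), 2 (0.68, 0.146), 3 (0.86, 0.0628) or 4 (0.80, 0.0948).

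Of the other LSm ring genes, LSM2, LSM5 and LSM6 were at 0.84 to 1.31 in PSN1 without passing, and LSM7 and LSM8 were at -0.20 each. LSM5 was the nearest to the threshold (0.84 ± 0.26, adjusted p 0.0649), with 53.6, 53.3, 51.4 and 71.6 CPM with AM-9747 and 42.4, 21.0, 37.1 and 28.0 CPM with vehicle, without overlap. LSM8, the subunit that marks the nuclear U6 ring, was at 0.11 ± 0.17, -0.12 ± 0.14 and -0.20 ± 0.24 in BXPC3, MIAPACA2 and PSN1. In MIAPACA2 LSM7 and SNRPD2 were lower in every AM-9747 library than in any vehicle library, as was SNRPN (AM-9747 lower without overlap for 11% of all genes there), and neither passed (-0.30 ± 0.12, adjusted p 0.130, and -0.24 ± 0.12, 0.207). LSM3 overlaps 318 exon bases of XPC and LSM1 198 of BAG4, both on the opposite strand. In PSN1 XPC was at 0.13 ± 0.23 (adjusted p 0.753) and BAG4 at 0.62 ± 0.39 (0.328).

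**Figure D4:**
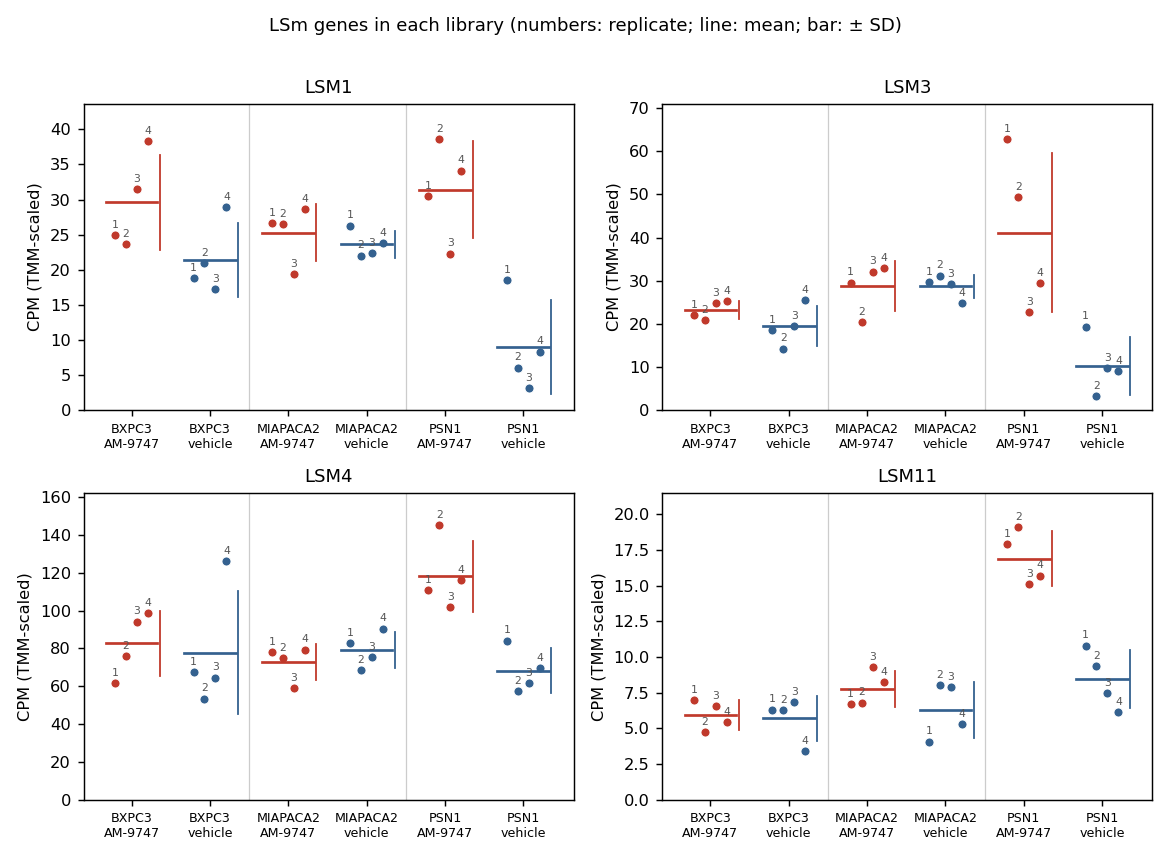
Levels (CPM) of LSM1, LSM3, LSM4 and LSM11 in each library, AM-9747 left of vehicle in each line, with the group mean and SD. In PSN1 the 4 AM-9747 libraries lie above the 4 vehicle libraries for each of these genes, as for 11.7% of all genes there. In BXPC3 and MIAPACA2 the groups overlap.

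LSM10 and LSM11 replace SmD1 and SmD2 in the U7 snRNP, which cuts the 3′ ends of replication-dependent histone pre-mRNAs. LSM10 stood in MIAPACA2 at 26.0, 25.9, 20.1 and 27.7 CPM with AM-9747 and 15.7, 16.6, 19.2 and 19.1 CPM with vehicle. In BXPC3 it stood at 21.8, 21.4, 29.2 and 33.9 CPM with AM-9747 and 19.0, 17.8, 18.9 and 29.2 CPM with vehicle, and in PSN1 at 36.6, 44.7, 42.5 and 39.1 CPM with AM-9747 and 40.2, 16.0, 30.2 and 26.6 CPM with vehicle. The groups are apart in MIAPACA2 (AM-9747 higher, as for 9.88% of all genes there). LSM10 rose in MIAPACA2 (0.50 ± 0.15, adjusted p 0.0450) and was at 0.32 ± 0.21 in BXPC3 (0.276) and 0.53 ± 0.28 in PSN1 (0.242). The MIAPACA2 call was lost without vehicle replicate 1 (0.44, adjusted p 0.112), 2 (0.47, 0.0872) or 3 (0.54, 0.0883) or AM-9747 replicate 1 (0.48, 0.129), 2 (0.48, 0.114) or 4 (0.44, 0.122).

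LSM11 had the lowest mean per kilobase of the 37 genes in each vehicle group. In PSN1 it stood at 17.9, 19.1, 15.1 and 15.7 CPM with AM-9747 and 10.8, 9.36, 7.49 and 6.14 CPM with vehicle. In BXPC3 it stood at 6.99, 4.74, 6.55 and 5.45 CPM with AM-9747 and 6.32, 6.27, 6.82 and 3.40 CPM with vehicle, and in MIAPACA2 at 6.71, 6.81, 9.28 and 8.22 CPM with AM-9747 and 4.07, 8.05, 7.89 and 5.29 CPM with vehicle. Only in PSN1 are the groups apart, and LSM11 rose there (1.00 ± 0.27, adjusted p 0.0432), beside 0.06 ± 0.24 in BXPC3 (0.882) and 0.29 ± 0.24 in MIAPACA2 (0.456). The PSN1 call was lost without vehicle replicate 2 (1.06, adjusted p 0.0892), 3 (0.95, 0.0544) or 4 (0.88, 0.126) or AM-9747 replicate 1 (0.98, 0.105), 2 (0.94, 0.152), 3 (1.06, 0.0804) or 4 (1.04, 0.0961). The LSm proteins outside these rings, LSM12, LSM14A and LSM14B, did not pass in a line. LSM14A, a P-body protein, was higher in every AM-9747 library of BXPC3 (246, 231, 218 and 196 CPM) than in the vehicle libraries (188, 185, 184 and 142 CPM), as 15.0% of all genes were, at 0.35 ± 0.13 (adjusted p 0.0675).

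The cap-binding complex of NCBP1 and NCBP2 binds the cap of new RNA polymerase II transcripts, snRNAs among them, and its 2 genes moved in opposite directions in BXPC3. NCBP1 stood there at 55.5, 50, 47.8 and 42.9 CPM with AM-9747 and 76.6, 78.2, 76.5 and 56.1 CPM with vehicle, and it fell (-0.55 ± 0.14, adjusted p 0.0164). NCBP2 stood at 71.7, 71.7, 71.8 and 70.0 CPM with AM-9747 and 54.6, 53.0, 61.2 and 53.8 CPM with vehicle, and it rose (0.36 ± 0.10, adjusted p 0.0247). For both genes the groups are apart, as for 17.2% of all genes in BXPC3 with AM-9747 lower and 15.0% with AM-9747 higher. The NCBP1 call was lost without BXPC3 vehicle replicate 1 (-0.52, adjusted p 0.0530) or 3 (-0.52, 0.0547) or AM-9747 replicate 3 (-0.54, 0.0525). The NCBP2 call was lost without BXPC3 vehicle replicate 1 (0.35, adjusted p 0.0775) or 2 (0.34, 0.0744) or AM-9747 replicate 2 (0.35, 0.0655) or 3 (0.35, 0.0725), and in the joint fit both were lost (0.487 and 0.463).

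In the other lines the cap-binding genes did not pass. NCBP1 was at 33.2, 34.0, 56.6 and 39.5 CPM with AM-9747 and 41.3, 81.8, 63.7 and 39.9 CPM with vehicle in MIAPACA2 (-0.47 ± 0.25, adjusted p 0.241). In PSN1 it was at 50.5, 38.7, 30.7 and 25.6 CPM with AM-9747 and 45.2, 19.5, 2.89 and 24 CPM with vehicle (0.66 ± 0.58, adjusted p 0.491), with vehicle replicate 3 far below the rest. NCBP2 was at 111, 117, 118 and 126 CPM and 123, 139, 127 and 115 CPM in MIAPACA2 (-0.10 ± 0.11, adjusted p 0.591), and at 116, 107, 70.0 and 74.9 CPM and 76.7, 40.9, 16.7 and 52.6 CPM in PSN1 (0.97 ± 0.39, adjusted p 0.137). The groups overlap in each of these comparisons.

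PHAX, the adaptor that hands capped snRNA to the export receptor, did not pass in a line and differed between the lines. It stood at 32.8, 30.3, 23.9 and 25.6 CPM with AM-9747 and 32.8, 33.1, 29.2 and 24 CPM with vehicle in BXPC3 (-0.08 ± 0.15, adjusted p 0.733). In MIAPACA2 it stood at 39.4, 36.6, 55.0 and 46.6 CPM with AM-9747 and 50.3, 86.8, 69.3 and 46.0 CPM with vehicle (-0.51 ± 0.21, adjusted p 0.138). In PSN1 it stood at 54.7, 42.3, 32.9 and 33.3 CPM with AM-9747 and 35.9, 14.6, 25.6 and 18.4 CPM with vehicle (0.79 ± 0.31, adjusted p 0.131). The groups overlap in every line, and the responses differed (adjusted p 0.0405), with -1.29 ± 0.35 for MIAPACA2 minus PSN1 (0.0217). That difference was lost without any 1 of BXPC3 vehicle replicates 1 to 3, BXPC3 AM-9747 replicates 2 to 4, MIAPACA2 vehicle replicates 2 and 3, MIAPACA2 AM-9747 replicates 1, 2 and 4, PSN1 vehicle replicates 2 and 4 or PSN1 AM-9747 replicates 1 and 2, where the adjusted p was 0.0542 to 0.104.

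COIL, the gene of coilin, stood at 24.5, 24.4, 20.4 and 24.1 CPM with AM-9747 and 19.1, 21.7, 19.6 and 16.4 CPM with vehicle in BXPC3 (0.28 ± 0.13, adjusted p 0.126). In MIAPACA2 it stood at 18.3, 11.9, 21.8 and 20.1 CPM with AM-9747 and 17.6, 24.4, 22.9 and 20.7 CPM with vehicle (-0.25 ± 0.19, adjusted p 0.430), and in PSN1 at 26.0, 24.3, 14.4 and 15.1 CPM with AM-9747 and 16.7, 6.54, 4.54 and 13.3 CPM with vehicle (0.95 ± 0.42, adjusted p 0.170). The groups overlap in each line. SNUPN, the import adaptor snurportin, was lower in every AM-9747 library of BXPC3 (22.7, 20.8, 21.6 and 21.0 CPM) than in the vehicle libraries (25.2, 27.0, 24.6 and 33.1 CPM), as 17.2% of all genes were, at -0.35 ± 0.13 (adjusted p 0.0615).

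**Figure D5:**
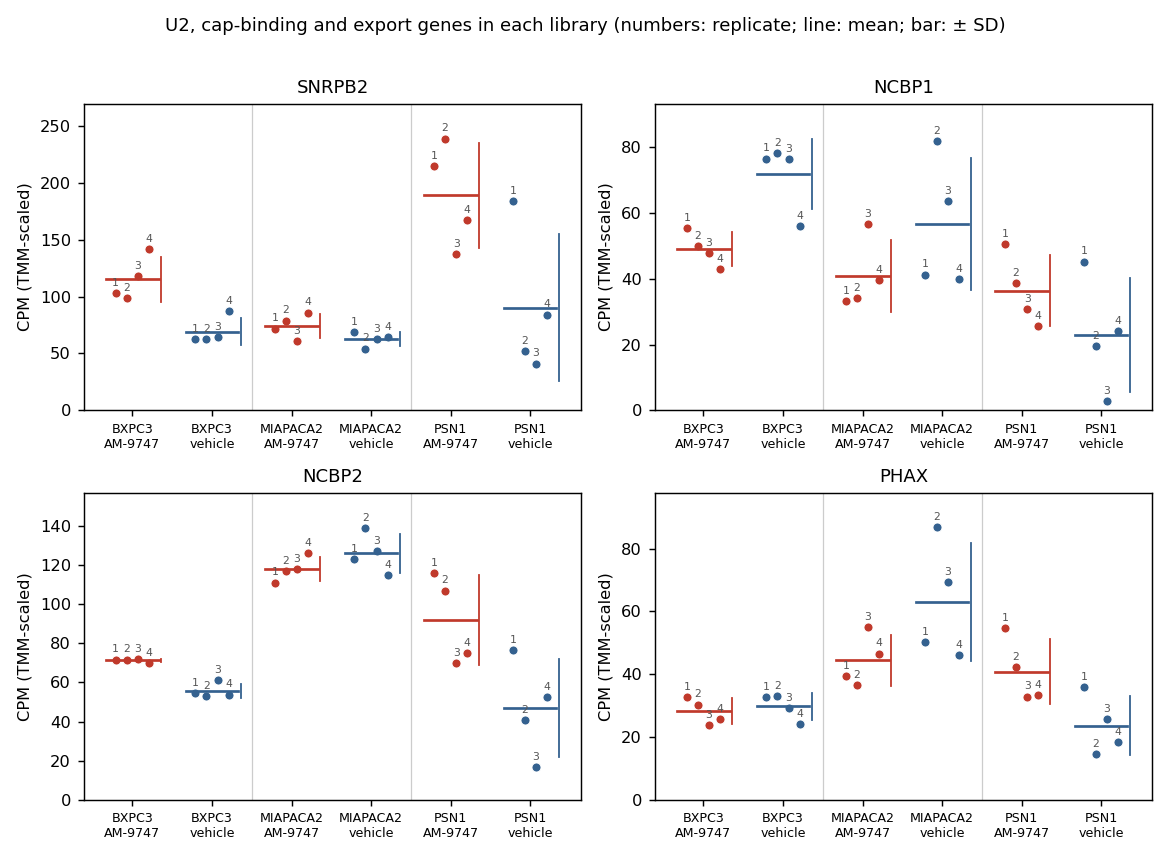
Levels (CPM) of SNRPB2, NCBP1, NCBP2 and PHAX in each library, AM-9747 left of vehicle in each line, with the group mean and SD. In BXPC3 SNRPB2 and NCBP2 lie higher and NCBP1 lower with AM-9747 without overlap, and PSN1 vehicle replicate 3 has the lowest NCBP1 value at 2.89 CPM.

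Averaged over the 3 lines, 12 of the 37 genes changed, 11 higher and SNRPN lower (32.4%, beside 23.3% of all genes, with 12.6% higher and 10.7% lower). This average takes 1 spread for all lines although PSN1 libraries vary most, and on simulated data it called unchanged genes more often than the threshold allows, so its p-values are likely too small. The genes that rose were LSM1, LSM3, SNRPB2, SNRNP27, SNRPA1, SNRPE, SNRPC, LSM10, LSM11, LSM5 and LSM12, with log2 values of 0.33 to 0.78. LSM1 had 0.78 ± 0.19 (adjusted p 0.00364), SNRPB2 0.69 ± 0.18 (0.00566) and SNRPA1 0.57 ± 0.14 (0.00425). SNRPN, SNRPB2, SNRPA1 and LSM10 passed under each of the 33 alternatives to this average, the one without PSN1 included. With BXPC3 and MIAPACA2 alone the count was 7, and LSM1 (0.28, adjusted p 0.128), LSM3 (0.13, 0.492), SNRNP27 (0.29, 0.0562), SNRPE (0.20, 0.231), SNRPC (0.20, 0.275), LSM5 (0.15, 0.412) and LSM11 (0.17, 0.518) did not pass. Those calls were lost without PSN1, but this fit has fewer libraries, so the loss does not show that the other lines lack a rise. In the BXPC3 fit LSM1, SNRNP27, SNRPE and SNRPC were higher with unadjusted p below 0.05, while LSM3, LSM5 and LSM11 were not. In the MIAPACA2 fit none of these genes was. Without PSN1 vehicle replicate 1 the count was 21, and over the single libraries left out it was 8 to 21. Those fits called 4789 to 6698 of all genes, beside 5331 with all libraries. The share of all genes called without PSN1 is given at the end.

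Some of these averages were also lost without single libraries. SNRPE was lost without PSN1 AM-9747 replicate 1 (0.47, adjusted p 0.0505), and LSM5 without AM-9747 replicate 4 of BXPC3 (0.32, 0.0574), MIAPACA2 (0.35, 0.0524) or PSN1 (0.34, 0.0527). SNRPC was lost without BXPC3 vehicle replicate 1, 2 or 3, BXPC3 or MIAPACA2 AM-9747 replicate 4, PSN1 vehicle replicate 2 or PSN1 AM-9747 replicate 2 (adjusted p up to 0.0577). LSM11 was lost without BXPC3 vehicle replicate 4, BXPC3 AM-9747 replicate 1 or 3, MIAPACA2 vehicle replicate 1 or 4, MIAPACA2 AM-9747 replicate 3 or 4, PSN1 vehicle replicate 4 or PSN1 AM-9747 replicate 1 or 2 (up to 0.0634). LSM12 was lost without any 1 library other than BXPC3 vehicle replicate 4, MIAPACA2 AM-9747 replicate 3 and PSN1 vehicle replicate 1 and AM-9747 replicates 3 and 4 (up to 0.0876).

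Of the difference between lines, 3 of the 37 genes passed (LSM1, LSM3 and PHAX, 8.11%, beside 12.1% of all genes). This test and the contrasts between pairs of lines take 1 spread for all lines, as the average does, although PSN1 libraries vary most. How that affects their p-values where many genes differ between lines was not tested. The response of SNRPE was also lower in MIAPACA2 than in PSN1 (-1.34 ± 0.42, adjusted p 0.0401). No gene of the 37 passed in the comparison of BXPC3 with MIAPACA2, where 2.07% of all genes did by edgeR, the one tool run on it. Without adjustment, p was below 0.05 for LSM7, SNRPB and SNRPD2, all higher in BXPC3, and for 0 lower, beside 5.21% and 7.48% of all genes. Over the single libraries left out, this test called 1997 to 6116 of all genes, beside 2765 with all libraries. The count of 3 became 19 without PSN1 vehicle replicate 1, 8 without BXPC3 vehicle replicate 4 and 0 without PSN1 AM-9747 replicate 1. It was 1 without PSN1 vehicle replicate 2 or 4, PSN1 AM-9747 replicate 2, BXPC3 AM-9747 replicate 2 or 3, MIAPACA2 vehicle replicate 3 or MIAPACA2 AM-9747 replicate 1 or 2. LSM1 was lost from it without these last 8 libraries and without MIAPACA2 vehicle replicate 1, MIAPACA2 AM-9747 replicate 3 and PSN1 AM-9747 replicates 1 and 4 (adjusted p 0.0502 to 0.0820).

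The partners of these proteins were taken from 8 lists. Of 15 U4/U6.U5 tri-snRNP genes, 6 rose and 1 fell in BXPC3, 1 rose in MIAPACA2 and 5 rose in PSN1, where 13.1% of all genes rose and 16.0% fell in BXPC3, 6.33% rose in MIAPACA2 and 4.49% rose in PSN1. DDX23, which encodes a helicase, was the one that rose in every line. It stood at 346 ± 36.5 CPM with AM-9747 and 136 ± 7.24 CPM with vehicle in BXPC3 (1.35 ± 0.11, adjusted p 6.37e-05), while in MIAPACA2 the means were 117 ± 6.76 CPM with AM-9747 and 75 ± 9.89 CPM with vehicle (0.65 ± 0.13, 0.00788), and in PSN1 260.5 ± 37.5 and 80.7 ± 12.7 CPM (1.69 ± 0.21, 0.00214). PRPF3 rose in BXPC3 (1.32 ± 0.11, adjusted p 5.81e-05), to 87.9 ± 7.47 CPM with AM-9747 against 35.2 ± 0.713 CPM with vehicle. Of 8 decapping genes, EDC4 rose and DCP1B fell in BXPC3 (0.77 ± 0.11, adjusted p 6.91e-04, and -0.81 ± 0.13, 0.00155), and the exonuclease XRN1, which degrades decapped mRNA, rose in every line (0.96 ± 0.28, adjusted p 0.0297, 1.22 ± 0.16, 0.00132, and 1.53 ± 0.25, 0.00602). XRN1 stood at 80.0 ± 8.62 CPM with AM-9747 and 41.2 ± 16.0 CPM with vehicle in BXPC3, 73.8 ± 12.2 and 31.7 ± 5.35 CPM in MIAPACA2, and 42.0 ± 2.42 and 14.5 ± 4.07 CPM in PSN1. The DDX23 and PRPF3 calls, and those of XRN1 in MIAPACA2 and PSN1, held without any single library, and the BXPC3 call of XRN1 was lost without vehicle replicate 3 (0.97, adjusted p 0.0681) or AM-9747 replicate 1 (0.89, 0.0582), 2 (0.95, 0.0680) or 3 (0.96, 0.0653). The 15 tri-snRNP genes had a median log2 fold change of 0.35 in BXPC3, -0.05 in MIAPACA2 and 0.59 in PSN1, beside 0.00, -0.03 and 0.08 for all genes.

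Single genes changed in the other lists. Beside the counts below, 13.1% of all genes rose and 16.0% fell in BXPC3, 6.33% rose and 7.47% fell in MIAPACA2, and 4.49% rose and 5.53% fell in PSN1, and with so few genes a list nothing is read from the counts about the lists. Of the 5 genes of the PRMT5 methylosome, WDR77 fell (-0.62 ± 0.15, adjusted p 0.0114) and RIOK1 rose in BXPC3, COPRS rose in MIAPACA2 (0.47 ± 0.13, 0.0370) and PRMT5 rose in PSN1 (0.99 ± 0.26, 0.0346). Of 10 SMN complex genes, SMN2 rose and GEMIN4 fell in BXPC3 (-0.58 ± 0.14, 0.0109) and GEMIN2 and STRAP rose in PSN1, with GEMIN2 at 15.0 ± 2.97 CPM with AM-9747 and 4.07 ± 1.13 CPM with vehicle (1.88 ± 0.32, 0.00722). SMN2 and SMN1 are near-identical, so the SMN2 value is uncertain. Of 10 SF3a and SF3b genes of the U2 snRNP, SF3B1 rose in BXPC3 (0.71 ± 0.12, 0.00233) and MIAPACA2 (0.53 ± 0.15, 0.0434), SF3B2 rose in BXPC3 and PSN1, and SF3B3 fell in MIAPACA2 (-1.06 ± 0.20, 0.00647). Of 8 further U11/U12 genes RNPC3 fell in PSN1 (-0.87 ± 0.22, 0.0335), of 8 U7 and histone processing genes ZNF473 rose in PSN1 (1.42 ± 0.32, 0.0223), and of 11 snRNA synthesis genes SNAPC1, SNAPC2 and SNAPC4 rose and SNAPC5 fell in BXPC3. Of the genes in this paragraph, WDR77, GEMIN4, GEMIN2, SF3B1 in BXPC3, SF3B3, SNAPC1, SNAPC2 and SNAPC4 kept their calls without any single library, and each of the others lost its call without at least 1 library, as set out next. In BXPC3 RIOK1 was lost without vehicle replicate 1, 2 or 3 or any 1 of AM-9747 replicates 1 to 4 (0.28 to 0.34, adjusted p up to 0.155), SF3B2 without vehicle replicate 1, 2 or 3 or AM-9747 replicate 2, 3 or 4 (0.35 to 0.43, up to 0.114), SMN2 without vehicle replicate 1 (0.43, 0.0567) or AM-9747 replicate 3 (0.47, 0.0518) and SNAPC5 without AM-9747 replicate 2 (-0.72, 0.0556). In MIAPACA2 COPRS was lost without any 1 library other than AM-9747 replicate 3 (0.38 to 0.50, up to 0.106) and SF3B1 without vehicle replicate 1, 2 or 3 or AM-9747 replicate 1, 2 or 4 (0.46 to 0.55, up to 0.135). In PSN1 PRMT5 (0.78 to 1.09, up to 0.0973) and RNPC3 (-0.96 to -0.82, up to 0.118) were lost without vehicle replicate 2 or 4 or any 1 of AM-9747 replicates 1 to 4. STRAP was lost in PSN1 without any 1 library other than vehicle replicate 1 (1.15 to 1.44, up to 0.117), ZNF473 without vehicle replicate 2 or 4 or AM-9747 replicate 1, 2 or 4 (1.32 to 1.49, up to 0.0684), and SF3B2 without vehicle replicate 4 (0.95, 0.0579) or AM-9747 replicate 2 (1.01, 0.0523).

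With vehicle alone, levels of many of these genes differed between the lines. Of the 37, 18 differed between BXPC3 and MIAPACA2 (7 higher in BXPC3), beside 64.7% of all genes (33.2% higher), 13 between BXPC3 and PSN1 (9 higher in BXPC3), beside 58.8% (31.6% higher), and 19 between MIAPACA2 and PSN1 (13 higher in MIAPACA2), beside 47.5% (24.1% higher). The shares of the 37 were 48.6%, 35.1% and 51.4%. SNRPN had 32.3 ± 5.59 CPM in BXPC3, 68.9 ± 5.10 in MIAPACA2 and 100.0 ± 13.1 in PSN1, with BXPC3 below MIAPACA2 (-1.09 ± 0.15, adjusted p 9.07e-05) and below PSN1 (-1.63 ± 0.20, 1.14e-04). MIAPACA2 was below PSN1 (-0.54 ± 0.18, 0.0290), a call lost without scaling (-0.17, 0.520) and without any 1 of MIAPACA2 vehicle replicates 1 to 4 (0.0516 to 0.0756). Line, culture and handling cannot be told apart in these comparisons. The count between BXPC3 and MIAPACA2 was 16 to 24 over the single libraries left out, where 11092 to 13111 of all genes were called. The count between BXPC3 and PSN1 was 8 without BXPC3 vehicle replicate 1, 2 or 3 and 20 without PSN1 vehicle replicate 1. The count between MIAPACA2 and PSN1 was 10 without MIAPACA2 vehicle replicate 1 or 2 or PSN1 vehicle replicate 4, and 8 without MIAPACA2 vehicle replicate 3. Over the single libraries left out, 9362 to 12011 of all genes were called between BXPC3 and PSN1. Between MIAPACA2 and PSN1 7214 to 10098 were called.

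Per kilobase SNRPB led in every vehicle group, at 273 ± 80.3 RPKM in BXPC3, 161 ± 11.7 in MIAPACA2 and 272 ± 76.8 in PSN1, with SNRPD2 next at 103 ± 40.3, 139 ± 8.52 and 121 ± 33.2 RPKM. The libraries of SNRPB and SNRPD2 overlap in MIAPACA2 and not in BXPC3 or PSN1. LSM11 was last by mean in each, at 0.866, 0.961 and 1.28 RPKM, and in PSN1 its libraries overlap those of SNRNP48, the next gene above. SNRPN ranked 25 of 37 in BXPC3, 16 in MIAPACA2 and 9 in PSN1, at 9.46, 20.2 and 29.3 RPKM.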

How the data were processed

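Poly(A) RNA of 24 libraries (3 lines, AM-9747 or vehicle, 4 libraries in each of 6 groups) was sequenced with a stranded kit, per the labels' protocols. The authors deposited raw read counts per gene, and the submitters' processing notes name fastp 0.19.8, HISAT2 2.2.0, R 4.0.2, DESeq2 1.34.0 and GRCh38. For the counter, its strand setting and the gene annotation, a name or version is not given in the sources used here. Of 60366 entries, 58504 carried an Ensembl ID and 56271 matched GENCODE 29.

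The members and gene lists were chosen with earlier results of these data known. Counts were fitted with edgeR 4.0.16 (R 4.3.3) by quasi-likelihood in each line, after filterByExpr, with TMM factors from all 24 libraries. A joint fit of the 6 groups gave the mean response and the test of differences between lines, and vehicle libraries alone gave the line comparisons. The SE is the log2 fold change divided by the square root of its F statistic. P-values were Benjamini-Hochberg adjusted over all genes tested. Alternatives used limma 3.58.1, DESeq2 1.42.0, other scalings and filters, covariates and left-out libraries. The length tilt covariate and the leaving out of PSN1, or of its vehicle replicates 2 and 3 together, were chosen after seeing the data. The scripts were tested on simulated data with known changes. There the fits of BXPC3 and PSN1 and the test of differences between lines made few or no false calls. The joint fit called too many unchanged genes in PSN1, whose libraries vary most, and to a lesser degree in the mean response, and the MIAPACA2 fit was also somewhat too permissive.

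Values in every library were given for genes that passed in a line or in the difference between lines (up to 5 per line and 4 for the difference), and for SNRPB, SNRPD1, SNRPD3, LSM4, COIL and SNRPN. SNRPA, SNRNP200, SNRNP25, LSM5, LSM14A and SNUPN were added after their values were seen, because their groups did not overlap. Of each partner list, genes with the smallest adjusted p were named. Replicates differed beyond counting noise (lowest chi-square per gene 7.14), and no library was counted as a repeat.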

Additional observations from a re-analysis of the deposited data

Results flagged for a closer look

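Dixon's gap ratio is the gap of an extreme library to its nearest neighbour over the range of its group. It was examined in 90 groups of 4 libraries against Dixon's 95% critical value, and 11 (12.2%) passed. Chance gives about 1 in 20 where groups are independent. These groups are not, because the genes share the same libraries, and some genes were named for their test results. Nothing is read about the genes from the share that passed. BXPC3 vehicle replicate 4 gave 7 of the 11. It was the high library of its group for SNRPB (0.907), SNRPD1 (0.952), SNRPB2 (0.927), LSM10 (0.895) and the sum of the 37 genes (0.918), and the low one for LSM11 (0.839) and NCBP1 (0.923). PSN1 vehicle replicate 1 was high for SNRPD1 (0.924) and PSN1 vehicle replicate 3 was high for SNRPD3 (0.857). Among BXPC3 AM-9747 libraries, replicate 4 was low for NCBP2 (0.944) and replicate 3 was low for COIL (0.902).

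The response to AM-9747 differed between the lines by edgeR's F test for LSM1 (adjusted p 0.0355), LSM3 (0.0160) and PHAX (0.0405). LSM1 and LSM3 were higher in all 4 AM-9747 libraries than in any vehicle library in PSN1, as 11.7% of all genes were, with log2 values of 1.79 and 1.99 there.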

How the results depend on the processing

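No gene that passed changed direction under the alternatives run. The median log2 fold change of the 37 genes in MIAPACA2 did, at -0.11 with TMM and 0.06 without scaling. Counts of the 37 genes called follow, with the share of all genes called by the same fit in parentheses. In BXPC3 the count was 4 (29.2%), and it was 7 (29.4%) with median-of-ratios scaling, 8 (29.4%) without scaling, 11 (36%) with DESeq2, 1 (10.5%) in the joint fit, 20 (45.4%) with the mitochondrial share and 28 (53.7%) with length tilt as a covariate. In MIAPACA2 it was 2 (13.8%), and it was 1 (7.83%) with all genes that had a count, 1 (5.03%) in the joint fit, 10 (35.9%) with the mitochondrial share and 7 (30.7%) with length tilt. In PSN1 it was 4 (10.0%), and it was 9 (9.59%) without scaling, 12 (20%) with DESeq2, 20 (25.2%) in the joint fit, which on simulated data made many false calls in this line, 2 (7.60%) with the mitochondrial share and 0 (3.60%) without vehicle replicates 2 and 3 together. The mean response had 12 (23.3%), and it had 20 (25.5%) without scaling, 23 (34.0%) with voom and library weights and 7 (26.9%) without PSN1. The difference between lines had 3 (12.1%), and it had 5 (13.0%) without scaling, 6 (21.3%) with DESeq2, 23 (29.1%) with voom and library weights and 0 (8.18%) without PSN1 vehicle replicates 2 and 3 together. With 1 library left out the counts were 2 to 19 in BXPC3 (20.5 to 37.1%), 1 to 2 in MIAPACA2 (6.37 to 17.3%), 0 to 22 in PSN1 (2.54 to 23.9%), 8 to 21 for the mean (20.1 to 28.2%), 0 to 19 for the difference (8.43 to 25.8%), and 16 to 24, 8 to 20 and 8 to 23 (57.8 to 68.3%, 48.9 to 64.2% and 37.9 to 53.8%) for the vehicle levels of BXPC3 against MIAPACA2, BXPC3 against PSN1 and MIAPACA2 against PSN1. The cause of these changes was not tested. With the replicate number as a block the counts were 17 (40.3%) in BXPC3, 1 (9.42%) in MIAPACA2, 16 (18.4%) in PSN1, 20 (25.8%) for the mean and 14 (18.9%) for the difference, but correlations of same-numbered libraries ran from -0.26 to 0.52 and not every library correlated best with its own number, so the numbers were not taken to pair the libraries. SNRPN kept its call under all 18 alternatives in BXPC3 and in MIAPACA2, and passed in PSN1 under 6 of 19.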
